A study of Oryza sativa with 12 samples.

Results

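OsBiP4, ERDJ3A, ERDJ3B and DER1 are 4 rice genes of protein folding and degradation in the endoplasmic reticulum (ER), and their transcript levels were followed in developing seeds. They were chosen by name, with earlier results of these data known, so the shares of all tested probe sets below are no independent test. A probe set was taken if the array's annotation gave it exactly 1 gene whose symbol or synonym was one of the 4 names. This found 4 genes of the 17905 on the array, each with 1 probe set of the 57381: OsBiP4 is LOC4338866, ERDJ3A is LOC4332515 (also OsDjC27), ERDJ3B is LOC4337860 (also OsDjB6) and DER1 is LOC4338013. The names rest on gene identifiers in the annotation and were not checked by sequence, DER1 included, and with 1 probe set each, no second probe set checks any of the values.

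The tissue was developing seeds of field-grown rice, measured on 12 Affymetrix arrays in 4 groups of 3. The transgenic lines GR14, 35S-15 and HFL1 are labelled as having a high lysine level, and the wild type (WT), Wuxiangjiang9, as having a normal one. By the sample labels the seeds were taken 10 days after flowering, by the design text of the series 15. The labels name no transgene, promoter or selection marker, and do not say how many plants or transformation events stand behind a line. Earlier publications on the lines describe HFL1 as a combination of GR14 and 35S-15, which the labels do not state. Whether arrays of 1 group stem from different plants is not stated, so p-values reflect array-to-array spread only, and that spread may be technical. The stated question of the study is how lysine metabolism relates to seed development.

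Rice endosperm makes its storage proteins on the rough ER. There BiP, the Hsp70 chaperone of the ER lumen, binds unfolded chains, J-domain co-chaperones of the ERdj type stimulate its ATPase and bring it clients, and proteins that fail to fold are passed back to the cytosol for breakdown by the proteasome, with Derlin family membrane proteins such as DER1 at the exit. When unfolded chains accumulate, the sensor IRE1 splices the messenger of the transcription factor bZIP50, and genes of chaperones and of ER-associated degradation are induced; this is the unfolded protein response.

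The arrays labelled WT were not alike, which touches every comparison with WT below. Of 64 probe sets for reporter genes, 1 exceeded an array's median by over 6 on the log2 scale: RPTR-Os-K01193-1_at stood at a log2 signal of 13.51 and 13.78 in WT replicates 2 and 3, against 4.53 in WT replicate 1, and at 4.67 or lower in the 9 arrays of the lines. Among the 31792 tested probe sets, 3 were higher in both WT replicates 2 and 3 than in WT replicate 1 by over 6 on the log2 scale, and 0 were lower by as much. OsBiP4 is among the 3. The labels give all 3 arrays as wild type Wuxiangjiang9, but whether replicates 2 and 3 hold the same plant material as replicate 1 was not tested, so what a fold against WT measures is in doubt. Each comparison of ERDJ3A, ERDJ3B and DER1 with WT is therefore also given with WT replicate 1 as the only WT array. Tissue markers were read against the array median. On all arrays 11 of 12 endosperm marker genes were above it, the exception being GLUB4. So were 4 of 5 embryo or aleurone markers and 6 of 6 markers of green pericarp or leaf. As markers of each tissue passed this low bar, it cannot verify the tissue label.

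OsBiP4 encodes a BiP of the ER lumen. It gave MAS5 signals, on the linear scale, of 6704 and 9213 in WT replicates 2 and 3, and of 29.4 in WT replicate 1. On the log2 scale it stood at 2.48, 0.40 and 3.98 in GR14, at 6.13, 5.31 and 3.66 in 35S-15, at 3.91, 2.41 and 2.46 in HFL1, and at 4.88, 12.71 and 13.17 in WT. WT replicates 2 and 3 were high and the other 10 arrays low, and WT replicate 1 lay inside the range of the 35S-15 arrays. The signal exceeded the array's own median in 3 of 12 arrays, which are these 2 WT arrays and, by 0.23 on the log2 scale, 35S-15 replicate 1. The filter asked for 3 such arrays, so OsBiP4 entered the fit by these 3. The values of the low arrays have no reliable order, since they lie near or below the array median and no detection calls were used.

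In the fit across all probe sets limma called OsBiP4 in GR14 against WT (adjusted p 0.0171), and with WT replicate 1 as the only WT array it did not (adjusted p 0.691). As the GR14 arrays all lay below the array median, and the WT arrays were set apart by this gene among others, no fold is given and the call is not counted below. The reporter signal was high on the same 2 WT arrays, and its part in the OsBiP4 values was not tested.

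ERDJ3A and ERDJ3B, J-domain co-chaperones of the ER Hsp70 system, were well above the array medians on all 12 arrays. ERDJ3A had log2 signals of 10.14, 10.60 and 10.07 in GR14, of 12.27, 12.36 and 12.93 in 35S-15, of 11.52, 12.48 and 11.35 in HFL1, and of 12.10, 13.37 and 12.87 in WT. GR14 was lowest, and its highest array was below the lowest array of each other group. Group means were 10.27 ± 0.29 in GR14, 12.52 ± 0.36 in 35S-15, 11.78 ± 0.61 in HFL1 and 12.78 ± 0.64 in WT (SD, n = 3 each). In GR14 against WT, ERDJ3A fell by 2.51 ± 0.33 (SE) on the log2 scale, a level 5.71-fold lower, with a limma adjusted p of 0.000535. With WT replicate 1 as the only WT array the log2 fold was -1.83 ± 0.40 and still passed (limma adjusted p 0.0397), and over all alternatives it ran from -2.85 to -1.83, past the test in each.

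ERDJ3B had log2 signals of 11.72, 11.10 and 11.27 in GR14, of 12.44, 12.59 and 12.79 in 35S-15, of 11.90, 12.70 and 11.89 in HFL1, and of 12.41, 13.57 and 13.29 in WT. GR14 was again below all other arrays, though its replicate 1 was only 0.17 under the lowest HFL1 array. Group means were 11.36 ± 0.32 in GR14, 12.61 ± 0.18 in 35S-15, 12.16 ± 0.47 in HFL1 and 13.09 ± 0.61 in WT (SD, n = 3 each). In GR14, ERDJ3B fell by 1.73 ± 0.29 (SE) on the log2 scale against WT, a level 3.32-fold lower (limma adjusted p 0.00295). Its log2 fold against WT replicate 1 alone was -1.05 ± 0.33 and did not pass (limma adjusted p 0.143).

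DER1, of the Derlin family, acts at the exit of misfolded proteins from the ER. GR14 arrays had log2 signals of 9.08, 8.62 and 8.77, 35S-15 arrays of 10.36, 10.07 and 10.34, HFL1 arrays of 9.41, 10.48 and 9.58, and WT arrays of 9.66, 11.18 and 11.83. The GR14 arrays were the 3 lowest of the 12, and WT was the most scattered group, with a range of 2.17 on the log2 scale against 0.29 to 1.07 in the lines. Group means were 8.82 ± 0.24 in GR14, 10.26 ± 0.16 in 35S-15, 9.82 ± 0.58 in HFL1 and 10.89 ± 1.11 in WT (SD, n = 3 each). Against WT, DER1 in GR14 fell by 2.07 ± 0.42 (SE) on the log2 scale, a level 4.19-fold lower (limma adjusted p 0.0118). Set against WT replicate 1 alone the log2 fold was -0.84 ± 0.36 and did not pass (limma adjusted p 0.323). The call was also lost without WT replicate 2 (0.0541) and without GR14 replicate 2 (0.0529).

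**Figure D1:**
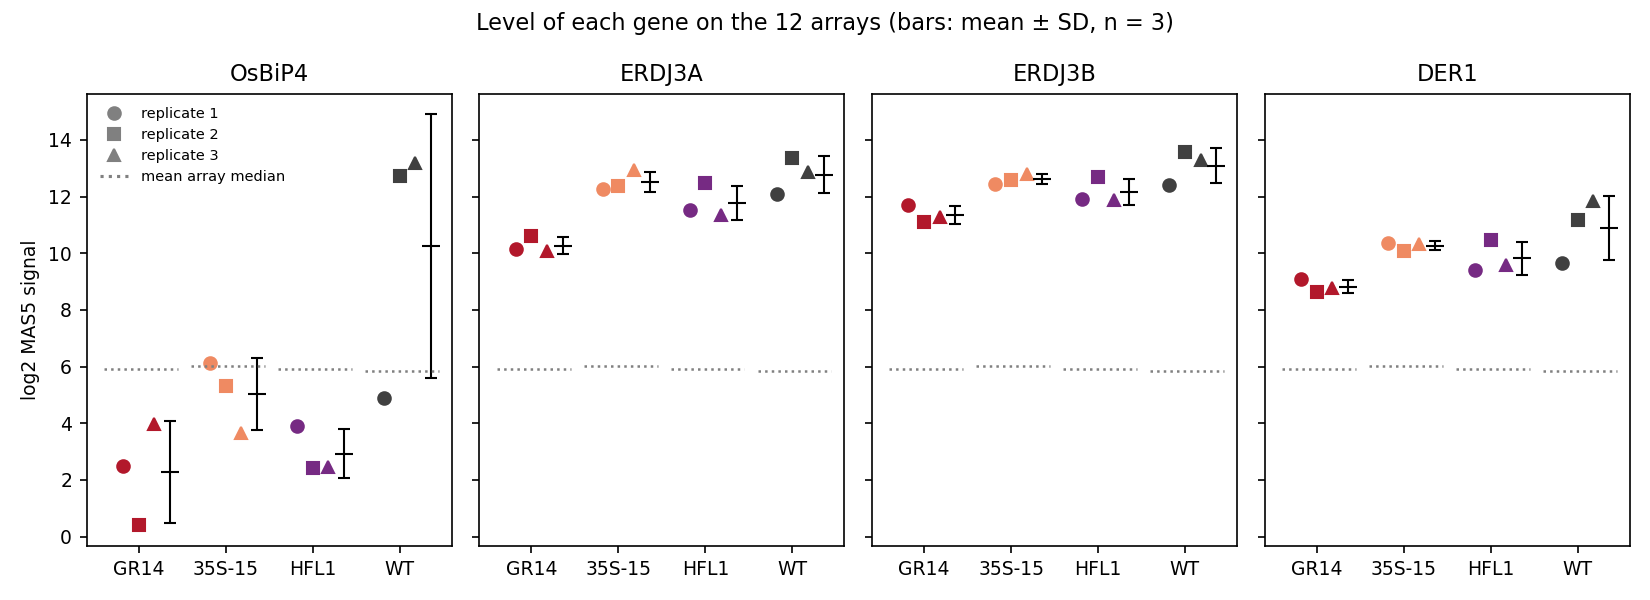
Log2 MAS5 signal of OsBiP4, ERDJ3A, ERDJ3B and DER1 on each of the 12 arrays, by line; points are arrays, bars the mean ± SD of 3 arrays, and dotted lines the mean array median of the group. OsBiP4 is high in WT replicates 2 and 3 alone, while for ERDJ3A, ERDJ3B and DER1 the 3 GR14 arrays are the lowest of the 12.

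In GR14 against WT the 3 genes above the array median on all arrays, ERDJ3A, ERDJ3B and DER1, passed, each with 3 GR14 arrays below the 3 WT arrays. Of all tested probe sets 2.96% were called lower in this comparison, and 11.0% had all GR14 arrays below all WT arrays. Of the 3, 1 passed with WT replicate 1 as the only WT array, ERDJ3A, where 1.19% of all tested probe sets were called lower. WT replicates 2 and 3, used without replicate 1, gave log2 folds of -2.85 for ERDJ3A, -2.07 for ERDJ3B and -2.68 for DER1. In seed tissue fewer cells of a type and less RNA per cell cannot be told apart.

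In 35S-15 against WT 0 of the 3 genes passed by limma, and 0 had an unadjusted p under 0.05. The background was low, with 0.00315% of all tested probe sets called lower and 2.56% lower at an unadjusted p under 0.05. ERDJ3A had a log2 fold of -0.26 (95% confidence interval -0.98 to 0.45), ERDJ3B one of -0.49 (-1.10 to 0.13) and DER1 one of -0.63 (-1.55 to 0.28). Against WT replicate 1 alone ERDJ3A had 0.42, ERDJ3B 0.20 and DER1 0.60, so the sign of all 3 turned with the choice of WT arrays.

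In HFL1 against WT 0 of the 3 genes passed by limma, where 0% of all tested probe sets were called lower. All 3 had an unadjusted p under 0.05 and a log2 fold below 0, against 2.51% of all tested probe sets. The log2 fold was -0.997 for ERDJ3A (95% confidence interval -1.71 to -0.28), -0.93 for ERDJ3B (-1.55 to -0.31) and -1.07 for DER1 (-1.98 to -0.15), and their limma adjusted p values lay between 0.643 and 0.721. For these 3 the HFL1 and WT arrays overlapped. Against WT replicate 1 alone the log2 fold was -0.31 for ERDJ3A, -0.25 for ERDJ3B and 0.16 for DER1.

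**Figure D2:**
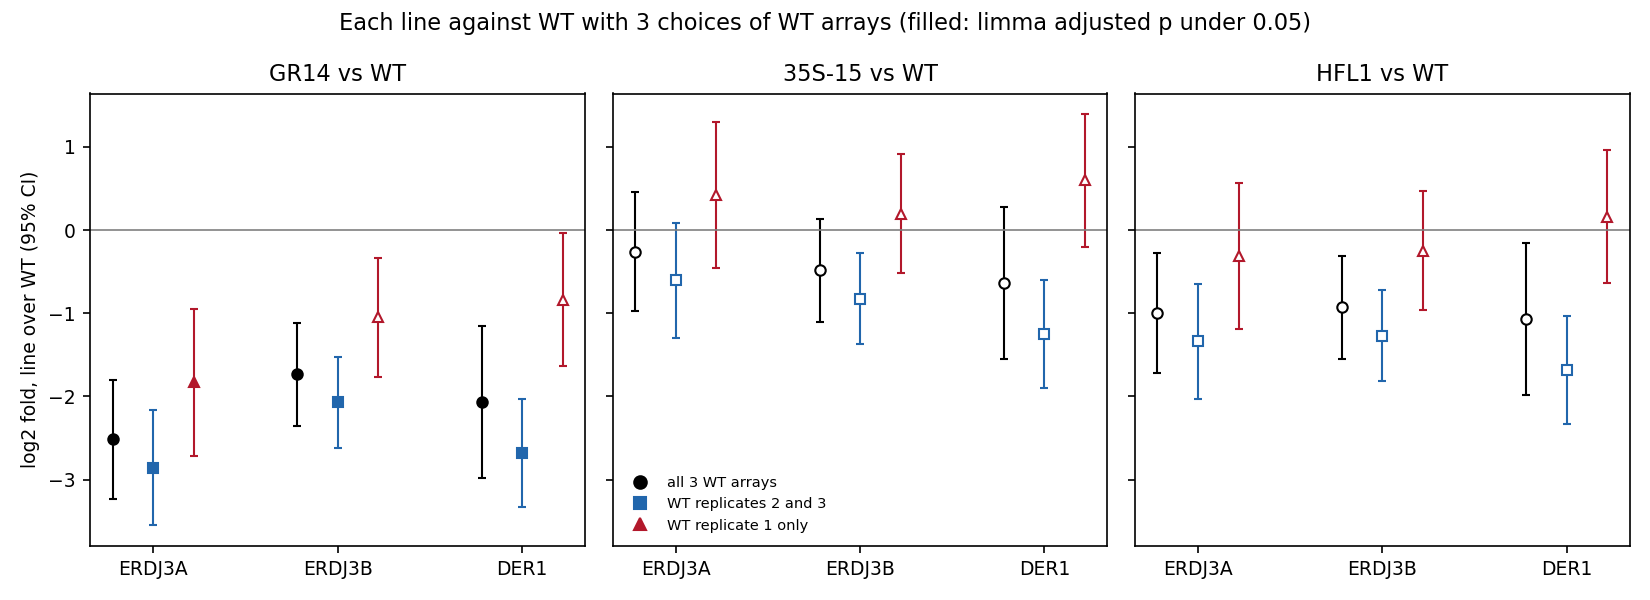
Log2 fold of each line over WT for ERDJ3A, ERDJ3B and DER1, with 95% confidence intervals, using all 3 WT arrays, WT replicates 2 and 3, or WT replicate 1 only; filled symbols have a limma adjusted p under 0.05. ERDJ3A in GR14 is filled with each choice, and the points for WT replicate 1 only lie nearest to or above 0.

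The lines were also compared with one another, which leaves out the WT means, although the WT arrays still enter the shared estimate of spread. ERDJ3A was higher by 1.52 ± 0.33 (SE) on the log2 scale in HFL1 than in GR14, with a limma adjusted p of 0.0148. In 35S-15 it was higher than in GR14 by 2.25 ± 0.33, with a limma adjusted p of 0.00112. ERDJ3B was higher by 1.25 ± 0.29 in 35S-15 than in GR14 (limma adjusted p 0.0203), and had a log2 fold of 0.80 ± 0.29 in HFL1 against GR14 that did not pass (limma adjusted p 0.122). DER1 had log2 folds of 1.00 ± 0.42 in HFL1 and 1.43 ± 0.42 in 35S-15 against GR14, with limma adjusted p values of 0.197 and 0.0670, neither past the test. For ERDJ3A, ERDJ3B and DER1 every array of HFL1 and of 35S-15 lay above every GR14 array. Of the 3 genes, 1 passed in HFL1 against GR14 and 2 passed in 35S-15 against GR14, where 3.92% and 3.42% of all tested probe sets were called higher and 12.1% and 11.2% had all arrays above GR14.

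Several of these calls rest on single arrays. The ERDJ3A call in HFL1 against GR14 was lost without GR14 replicate 1 (limma adjusted p 0.0536) and without HFL1 replicate 2 (0.0521). The ERDJ3B call in 35S-15 against GR14 was lost without GR14 replicate 2 or 3 (0.0901 and 0.0610) and without 35S-15 replicate 2 or 3 (0.0576 and 0.0717). DER1 in 35S-15 against GR14 passed without WT replicate 1 (0.00731), without WT replicate 3 (0.0294), with WT replicate 1 as the only WT array (0.00742) and with the compared groups alone (0.00262), at the same log2 fold of 1.43. DER1 in HFL1 against GR14 passed without WT replicate 1 (0.0450) and with it as the only WT array (0.0426). With that array as the only WT array, 3.71% of all tested probe sets were called higher in HFL1 and 3.22% in 35S-15 against GR14.

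HFL1 and 35S-15 did not differ past the test for any of the 3 genes, where 0.00315% of all tested probe sets were called lower; 1, ERDJ3A, had an unadjusted p under 0.05, against 2.22% of all tested probe sets lower by that rule. The log2 fold of HFL1 over 35S-15 was -0.73 for ERDJ3A (95% confidence interval -1.45 to -0.02), -0.44 for ERDJ3B (-1.06 to 0.17) and -0.44 for DER1 (-1.35 to 0.48).

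**Figure D3:**
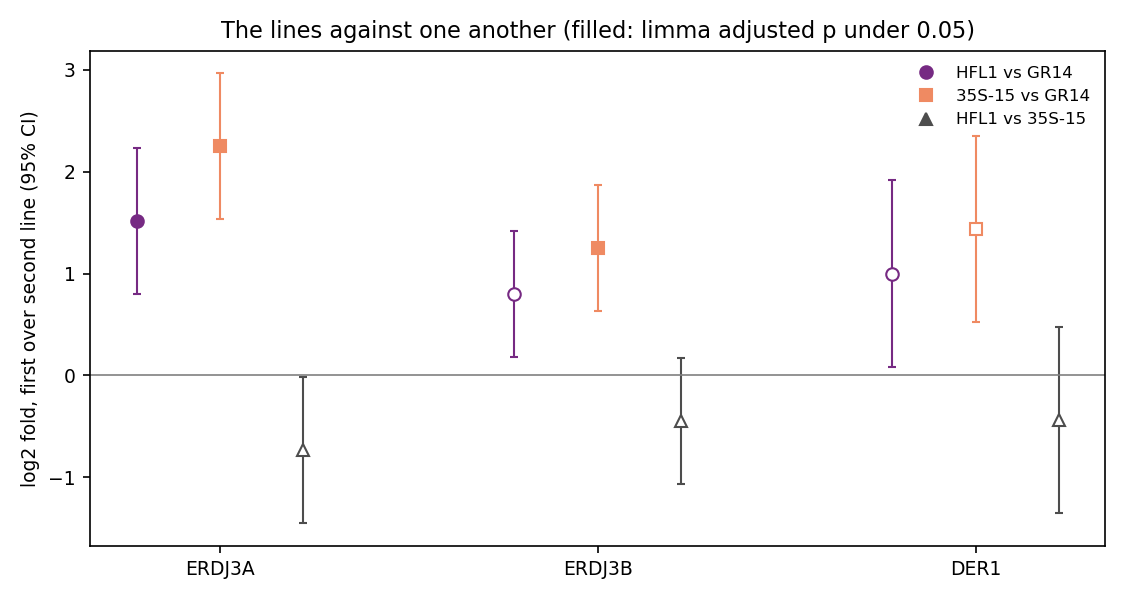
Log2 fold between lines for ERDJ3A, ERDJ3B and DER1, with 95% confidence intervals: HFL1 over GR14, 35S-15 over GR14 and HFL1 over 35S-15; filled symbols have a limma adjusted p under 0.05. ERDJ3A is filled in both comparisons with GR14 and ERDJ3B in 35S-15 over GR14, and no gene is filled in HFL1 over 35S-15.

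For ERDJ3A, ERDJ3B and DER1 the group means ran in the same order from low to high, GR14, HFL1, 35S-15 and WT. This order was held by 4.88% of all tested probe sets, and GR14 had the lowest mean in 31.0%. Neighbours in the order other than GR14 and HFL1 for ERDJ3A did not pass the test.

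Single arrays of a group also moved together across the genes. WT replicate 1 was the lowest WT array for all 4 genes, as it was for 38.8% of all tested probe sets. Its gap to WT replicates 2 and 3 was 1.28 and 0.78 on the log2 scale for ERDJ3A, 1.16 and 0.88 for ERDJ3B and 1.51 and 2.17 for DER1, against 7.84 and 8.29 for OsBiP4. HFL1 replicate 2 was the highest HFL1 array for ERDJ3A, ERDJ3B and DER1, as for 37.8% of all tested probe sets.

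The ratio of the co-chaperones was compared within arrays. On an array, the log2 signal of ERDJ3A minus that of ERDJ3B averaged -1.09 ± 0.55 in GR14, -0.09 ± 0.20 in 35S-15, -0.38 ± 0.16 in HFL1 and -0.31 ± 0.11 in WT (SD, n = 3 each). The GR14 arrays overlapped with those of HFL1 (exact two-sided permutation p 0.2). They did not overlap with those of WT or 35S-15. In each of these 2 comparisons the exact two-sided permutation p was 0.1, the smallest that 3 arrays against 3 allow, and 0.3 after Benjamini-Hochberg adjustment over the 9 ratio comparisons made. ERDJ3B minus DER1 averaged 2.54 ± 0.09 in GR14, 2.35 ± 0.24 in 35S-15, 2.34 ± 0.14 in HFL1 and 2.20 ± 0.67 in WT (SD, n = 3 each), with exact two-sided permutation p values of 0.7 for GR14 against WT, 0.3 for 35S-15 against GR14 and 0.2 for HFL1 against GR14. ERDJ3A minus DER1 averaged 1.44 ± 0.48 in GR14, 2.26 ± 0.34 in 35S-15, 1.96 ± 0.18 in HFL1 and 1.89 ± 0.75 in WT (SD, n = 3 each), with exact two-sided permutation p values of 0.5, 0.2 and 0.2 for the same comparisons.

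The transcripts most like each gene were sought by centring every tested probe set on its 12-array mean and taking the mean absolute difference in log2 signal over the 12 arrays. PDIL2-3, a protein disulfide isomerase-like enzyme of the ER, was nearest to ERDJ3B of all 31791 other probe sets, at a mean absolute difference of 0.14, and nearest to DER1, at 0.15. DER1 was the second named gene for ERDJ3B, at 0.23, and BZIP50 the third, at 0.24. For DER1 the next named genes were ERDJ3B at 0.23 and ERDJ3A at 0.40. For ERDJ3A they were ERDJ3B at 0.32, PDIL2-3 at 0.37 and DER1 at 0.40, with 10 probe sets nearer than DER1. The median over all tested probe sets was 0.96 for ERDJ3A, 0.68 for ERDJ3B and 0.82 for DER1. These distances describe 12 arrays in 4 groups that the genes share, and say nothing of shared control. The PDIL2-3 probe set ends in _x_at, a type that can bind related transcripts.

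PDIL2-3 had log2 signals of 12.15, 11.52 and 11.55 in GR14, of 12.79, 12.87 and 13.34 in 35S-15, of 12.18, 13.20 and 12.32 in HFL1, and of 12.52, 14.16 and 14.15 in WT. As for the 3 genes above, HFL1 replicate 2 was the highest of its group and WT replicate 1 the lowest of its group. For OsBiP4 the distance includes the low values that have no reliable order. The named gene nearest to it was GLU12, at a mean absolute difference of 1.53, where the median over all tested probe sets was 2.83. GLU12 had log2 signals of 7.86 and 8.30 in WT replicates 2 and 3, of 5.17 in WT replicate 1 and of at most 6.88 in the lines, so its gap within WT was smaller than that of OsBiP4. DER1 and PDIL2-3 were the next named genes for OsBiP4, at 2.21 and 2.30, with 38 probe sets nearer than PDIL2-3.

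**Figure D4:**
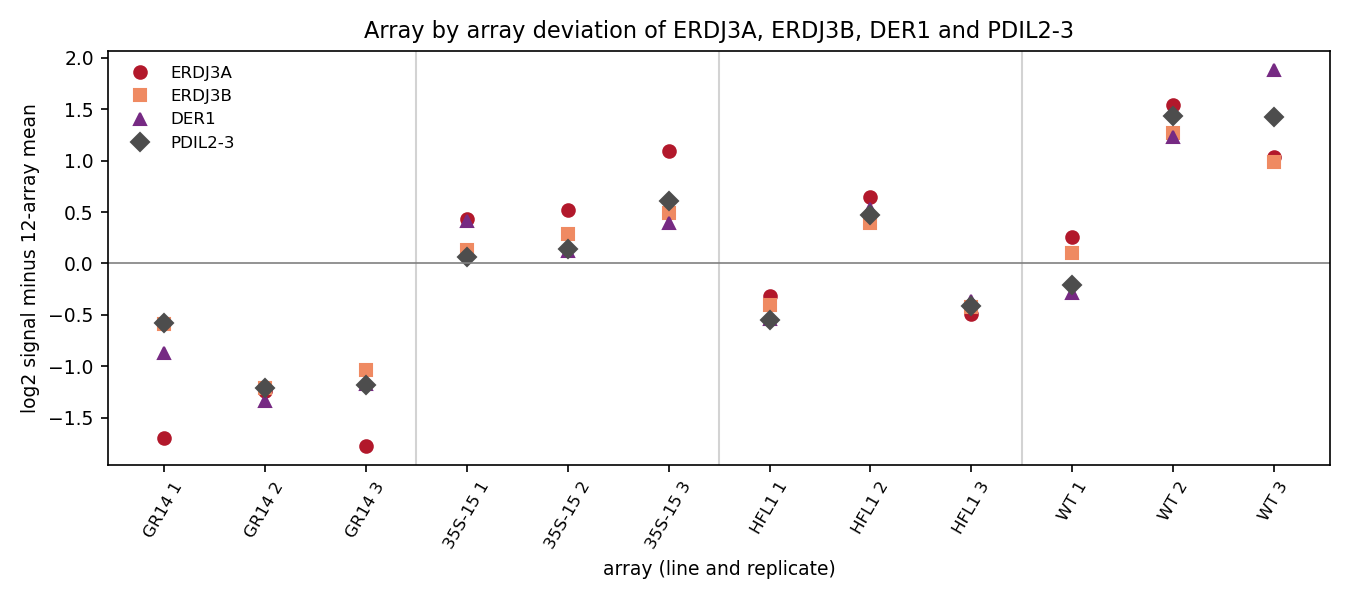
Log2 signal minus the 12-array mean for ERDJ3A, ERDJ3B, DER1 and PDIL2-3 on each array, grouped by line. Group means are lowest in GR14 and highest in WT for all 4 genes, and ERDJ3A lies below the others in GR14 replicates 1 and 3.

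The other ER folding and unfolded protein response genes on the array numbered 22 by a list of names. That list was drawn up with earlier results of these data known, and all 22 were tested. In GR14 against WT 5 fell and 0 rose, with a median log2 fold of -0.24 over the 22, where 2.96% of all tested probe sets were called lower and their median was 0.03. PDIL2-3 fell by 1.87 ± 0.39 (SE, log2 scale), BZIP50, the transcription factor whose messenger IRE1 splices, by 1.27 ± 0.30, BIP1, the main BiP of developing endosperm, by 0.97 ± 0.24, the transcription factor BZIP60 by 0.65 ± 0.18, and the Derlin gene DER2 by 0.48 ± 0.12 on the log2 scale. Their limma adjusted p values lay between 0.0127 and 0.0484. These folds use all 3 WT arrays. With WT replicate 1 as the only WT array the median log2 fold over the 22 was -0.14. The count depends on single arrays: 0 genes passed with WT replicate 1 alone or without WT replicate 2, 1 passed without WT replicate 3, GR14 replicate 2 or GR14 replicate 3, and 2 passed without WT replicate 1.

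BIP1 had log2 signals of 14.55, 13.98 and 13.78 in GR14, of 14.99, 14.80 and 15.52 in 35S-15, of 14.58, 15.20 and 14.49 in HFL1, and of 14.84, 15.30 and 15.08 in WT. All 3 GR14 arrays lay below all WT arrays, and WT replicate 1 lay within 1 log2 unit of the other WT arrays. BIP1 was higher by 1.00 ± 0.24 (SE) and BZIP60 by 0.77 ± 0.18 in 35S-15 than in GR14 (limma adjusted p 0.0279 and 0.0205), and these were the 2 of the 22 genes called there, against 3.42% of all tested probe sets called higher; without GR14 replicate 3 or 35S-15 replicate 3, 0 were called. In the other comparisons limma called 0 of the 22. At an unadjusted limma p under 0.05 in either direction stood 4 in HFL1 against GR14, where 20.9% of all tested probe sets did. By the same rule there were 2 in 35S-15 against WT (6.19%), 5 in HFL1 against WT (6.74%) and 0 in HFL1 against 35S-15 (4.46%).

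Other members of the same families and functions did not pass in GR14 against WT. ERDJ2 had a log2 fold of 0.05 ± 0.16 and ERDJ7 one of 0.30 ± 0.19 (SE) there (limma adjusted p 0.907 and 0.402). The degradation genes HRD1, a ubiquitin ligase, and OS9, a lectin that recognises misfolded glycoproteins, had log2 folds of -0.23 and -0.24, and the sensor IRE1 one of 0.06, none past the test. PDIL1-1 (-0.63), the lectin chaperone gene CRT1 (-0.52) and PDIL2-1 (-0.02) did not pass either. PDIL2-1 had log2 signals of 12.75, 12.83 and 12.67 in HFL1 against 12.23, 12.28 and 12.59 in WT, and was not called there. Its second probe set had a log2 fold of 0.10 in HFL1 against WT.

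**Figure D5:**
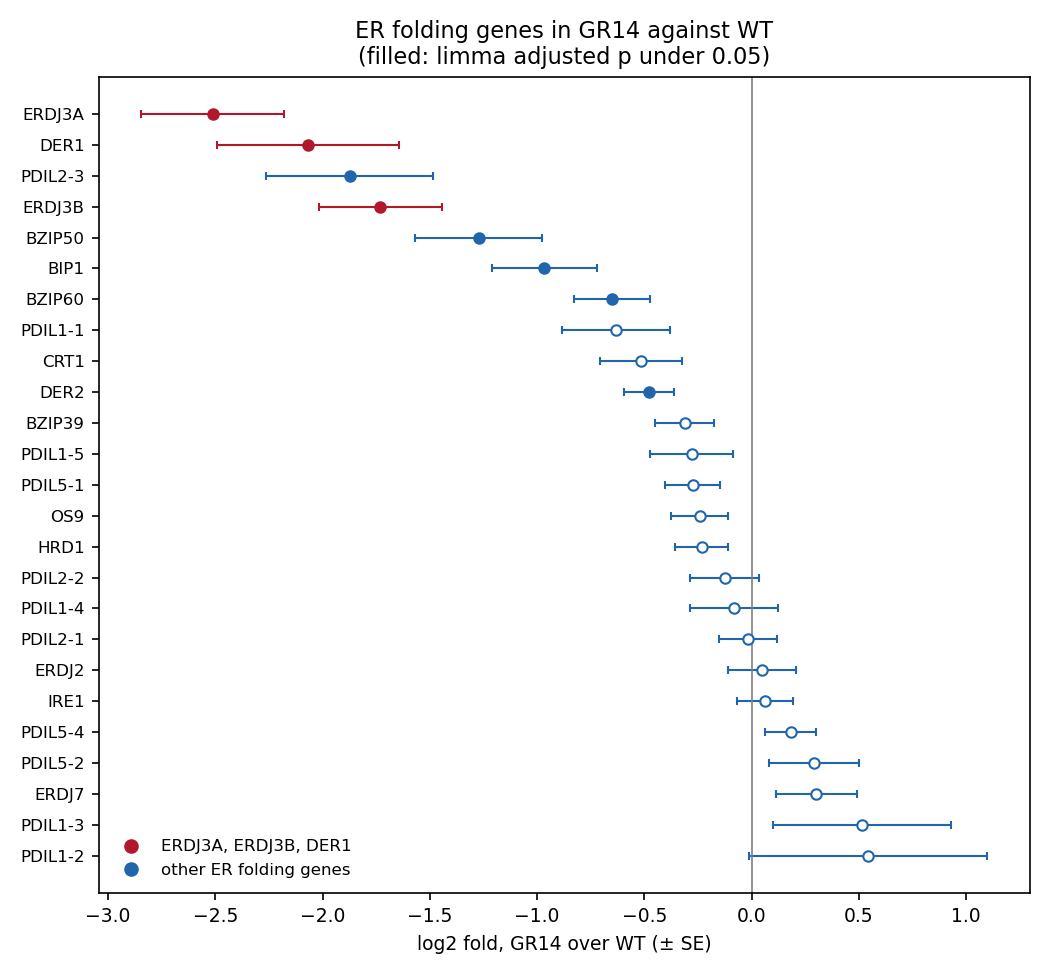
Log2 fold of GR14 over WT with its SE for ERDJ3A, ERDJ3B, DER1 and 22 other ER folding genes, ordered by value; filled symbols have a limma adjusted p under 0.05, and OsBiP4 is left out because its GR14 values lay below the array median. ERDJ3A, DER1, PDIL2-3 and ERDJ3B have the lowest values, and PDIL1-2 and PDIL1-3 the highest, not past the test.

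Tissue markers and RNA quality were also read, and among the marker sums that of green pericarp or leaf set GR14 apart. The summed signal of the 6 green pericarp or leaf markers was 51449 to 54456 in GR14 against 79731 to 87442 in WT, with 4 of the 6 genes called lower. It was 93265 to 125431 in 35S-15 and 92074 to 110748 in HFL1, each with 4 of the 6 genes called higher than in GR14. The sum weighs the brightest of these markers most, CAB2R, at log2 signals of 14.99 to 15.85 over the 12 arrays. In GR14 against WT 1 of the 6 markers had a log2 fold above 0. The summed signal of the 12 endosperm markers was 366217 to 488577 in GR14, 385019 to 565569 in 35S-15, 370665 to 439636 in HFL1 and 329273 to 386424 in WT. In GR14 against WT, 1 of these genes was called higher and 1 lower. The 5 embryo or aleurone markers summed to 25696 to 54729 in GR14 and 15116 to 51039 in WT, which overlap, with 1 gene called higher. Marker calls against WT use all 3 WT arrays. In GR14 the median log2 fold of tested markers was -1.94 for green pericarp or leaf, 0.24 for endosperm and 0.30 for embryo or aleurone. With WT replicate 1 as the only WT array these medians were -1.99, 0.15 and -0.13. RNA quality was read from 5 control transcripts as the log2 signal at the 3' end less that at the 5' end. GR14 replicate 3 ranked first of the 12 arrays for actin (5.65), GAPDH (4.20) and ubiquitin (0.14), 8th for cyclophilin (0.88) and last for EF1a (-2.29). WT replicate 1 also stood apart, first for EF1a (0.88, the next array at -0.53) and last for cyclophilin (0.70), and its part in the comparisons with WT was not tested. Without GR14 replicate 3 the log2 fold was -2.41 for ERDJ3A, -1.69 for ERDJ3B and -2.04 for DER1 in GR14 against WT, all past the test. The part of the green tissue markers in the falls of ERDJ3A, ERDJ3B and DER1 was not tested.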

How the data were processed

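Signal intensity was made by the authors with MAS5, per the submitters' processing notes, and deposited unlogged; its MAS5 version is not given in the sources used here, and detection calls were not used here. Each deposited column had a mean of 500.0 once its extreme 2% at either end was set aside, the mark of a common scaling. Unused columns of per-sample values numbered 0. Arrays carry no read depth, so their number limits the precision. Replicate numbers follow accession order and pair no samples.

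Log2 of the signal was used as it stood. Of the control probe sets, 123 AFFX and 64 RPTR took no part in tests. A probe set was tested if it exceeded the array median on 3 or more arrays, which left 31792. All 12 arrays were fitted together with limma 3.58.1 under R 4.3.3, using lmFit and trended eBayes, and two-sided p-values were adjusted by Benjamini-Hochberg over every tested probe set, with calls at 0.05. The fit was run on simulated data with independent arrays and changes in GR14 alone. That setting does not cover WT arrays that are unlike one another. Ratios within arrays used exact permutation tests in scipy 1.17.1. Alternatives were other scalings, filters, an offset of 50, no trend, array weights, the compared groups alone, each array left out, and WT replicate 1 as the only WT array.

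Gene names came from the array's annotation through gene identifiers in RefSeq's table for ASM3414082v1, where 17905 of 17905 matched; 22436 probe sets had 1 gene, 95 several and 34850 none. That table's build is not tied to the array, so no coordinates are given.

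The members, the ER list and the marker lists were chosen with earlier results of these data known. For the ER list 59 names were searched and 22 genes found, each read from its brightest probe set. The 8 of lowest p against WT in any line, and all BIP and ERDJ genes, were named; HRD1, OS9, IRE1, PDIL1-2 and PDIL1-3 were added after their values were seen. For likeness the 3 nearest genes with an informative symbol were named. Leaving OsBiP4 out of the counts was chosen after its values were seen.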

Additional observations from a re-analysis of the deposited data

Results flagged for a closer look

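For 3 results the difference from WT itself differed between lines by the limma contrast of the lines. ERDJ3A was higher by 1.52 on the log2 scale in HFL1 than in GR14. In 35S-15 it exceeded GR14 by 2.25. ERDJ3B was higher by 1.25 in 35S-15 than in GR14. The WT mean cancels in these contrasts, so the choice of WT arrays does not change their size, although it enters the estimate of spread.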

How the results depend on the processing

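No paired analysis was possible because the labels carry no replicate number within a group. Counts here include OsBiP4, whose low arrays lie near or below the array median; without it limma called 3 genes in GR14 against WT, 2 without WT replicate 2 or GR14 replicate 2 and 1 with WT replicate 1 alone. Leaving out single arrays, limma called 2 to 4 of the 4 genes in GR14 against WT, and 0 to 1 in 35S-15 and in HFL1 against WT. The call in 35S-15 and in HFL1 against WT was OsBiP4, without WT replicate 1. ERDJ3A, ERDJ3B and DER1 had 0 calls there whichever array was left out. Between lines limma called 0 to 2 in HFL1 against GR14, 1 to 3 in 35S-15 against GR14 and 0 in HFL1 against 35S-15. With WT replicate 1 as the only WT array it called 1 in GR14 against WT and 2 in HFL1 against GR14; with no intensity trend it called 0 in HFL1 against GR14 and 1 in 35S-15 against GR14. With WT replicate 1 alone the log2 fold turned sign in 35S-15 against WT for ERDJ3A (0.42), ERDJ3B (0.20) and DER1 (0.60). In HFL1 against WT the fold of DER1 turned with that array alone (0.16). Without WT replicate 2 ERDJ3A turned in 35S-15 against WT (0.033). OsBiP4 also turned, in 35S-15 against WT and in HFL1 against GR14. Its arrays there lie near or below the array median without a reliable order, so no fold is given. None of these turned values passed the test; the cause was not tested. Without single arrays ERDJ3A in 35S-15 against WT ran between -0.60 and 0.033, and OsBiP4 in HFL1 against GR14 between -0.30 and 1.49. Of the fold values under alternatives, 465 kept direction and side of the threshold, 18 lost the call, 8 gained it and 7 turned sign. Many of these fold values could not turn sign. A fold stays the same when the array left out is from a group outside the comparison. It also stays the same with no intensity trend and with the compared groups alone. Most of the results were not called in the main fit, so keeping their side mostly meant staying uncalled. The totals include OsBiP4, which gave no value under a filter at the 70th percentile, as it did not pass that filter.

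Over all tested probe sets, the 1799 calls in GR14 against WT became 747 with WT replicate 1 alone, 1160 with no intensity trend and 972 to 1805 without single arrays. The 9 calls each in 35S-15 and HFL1 against WT became 26 and 24 with WT replicate 1 alone, and 15 and 18 without it. The 2133 calls in HFL1 against GR14 became 1166 without HFL1 replicate 1, the 1889 in 35S-15 against GR14 became 1124 without GR14 replicate 2 and 1259 with no intensity trend, and the 2 in HFL1 against 35S-15 ranged from 1 to 3. Among the other 22 ER genes the 5 lower calls in GR14 against WT became 3 with no filter or with the compared groups alone, and 0 with no intensity trend; the 2 higher calls in 35S-15 against GR14 became 1 with median centring and 0 with no intensity trend. Recomputing the counts for the 22 genes was chosen after seeing the data. Where WT replicate 1 stands alone, it is assumed to vary like the other groups.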

Other observations

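ERDJ3B and PDIL2-1 lie next to each other in the RefSeq gene order of ASM3414082v1, with 1 tRNA gene between them. While ERDJ3B fell by 1.73 on the log2 scale in GR14 against WT, PDIL2-1 had log2 folds of -0.02 and, on a second probe set, -0.09, neither past the limma test. The difference between the neighbours was not tested.

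The other 2 probe sets that were higher by over 6 on the log2 scale in both WT replicates 2 and 3 than in WT replicate 1 have no gene name in the array's annotation. The gaps were 8.69 and 7.87 for 1 of them and 6.36 and 6.71 for the other, beside 7.84 and 8.29 for OsBiP4. They were chosen after their values were seen.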
